A study of Ascaris suum with 9 samples.

Results

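The table of read counts holds 17974 gene identifiers of Ascaris suum, a large intestinal roundworm that infects pigs, and 681 of them begin with AgE. The 265 AgE identifiers with at least 10 counts in at least 3 of the 9 libraries are described here and called AgE members. RNA came from whole larvae in 3 groups of 3 libraries. They were exposed for 3 hours to the control solvent, to biochanin A at 100 µM or to red clover extract at 200 µg/mL. The sources used here do not state the age or stage of the larvae, the solvent or the number of larvae per library. They also do not say whether replicates came from separate cultures, so the spread behind each p-value may be technical.

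Ascaris is known for programmed DNA elimination: the cells of the early embryo that form the body discard part of the germline genome, and with it a set of genes, while germ cells keep it. The sources used here do not say whether the letters AgE relate to that process. Biochanin A is an isoflavone found in red clover, and the design sets a plant extract beside one of its constituents. The files pair no AgE identifier with a gene name, a product, a position or a sequence. The members are therefore described by their identifiers alone, no role is given to any of them, and the labelled tissue could not be checked against marker genes. The part of an identifier before "_g" (AgE51 in AgE51_g004) is called its prefix.

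Most AgE identifiers had few reads or none. Of the 681, 247 (36.3%) had no read in any of the 9 libraries, 169 had reads but stayed below the limit of 10 counts in 3 libraries, and 265 (38.9%) passed it. Among identifiers beginning with AgB, 117 of 5750 (2.03%) had no read and 86.4% passed, and among those beginning with AgR, 262 of 11543 (2.27%) had no read and 87.0% passed. AgE identifiers make up 3.79% of the table and 39.5% of its identifiers without a read. Over all 9 libraries, no read allows a level of up to 0.00694 CPM (counts scaled to library size), taking 3 counts as the limit. This value covers counting error only and treats counts as independent reads, and low counts here cannot be read so, as described below.

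Unread and read identifiers were spread unevenly over the 83 AgE prefixes. In AgE01, which has the most identifiers, 38 of 64 had no read and 12 were members, whereas in AgE02 9 of 41 had no read and 25 were members. In AgE18, 9 of 10 identifiers had no read, from AgE18_g002 to AgE18_g010 without interruption. All 8 identifiers of AgE20, all 7 of AgE51 and all 5 of AgE29 were members. In all, 67 prefixes held at least 1 member and 16 held none, and the 18 prefixes with at least 5 members held 163 of the 265.

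The limit of 10 counts divided identifiers with similar values. AgE02_g014, just inside it, had 6, 11 and 0 counts in the control libraries, 6, 3 and 0 with biochanin A and 10, 15 and 49 with extract. AgE04_g013, just outside it, had 2, 0 and 8 counts in control, 8, 0 and 5 with biochanin A and 6, 20 and 0 with extract. The third-highest count was 10 or 11 in 10 members and 8 or 9 in 10 identifiers that were left out. The limit was reached in all 9 libraries by 139 members, and 74 members had 0 counts in at least 1 library. Only 1 member reached 10 counts in the libraries of a single group. AgE23_g001 and AgE23_g002, consecutive members chosen after their values were seen, had identical counts in each library (2, 34 and 22 in control, 64, 12 and 28 with biochanin A, and 16, 4 and 6 with extract), so they are no independent observations. No other pair of members was identical in all 9 libraries.

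AgE members were mostly rare in the reads. CPM in what follows are counts scaled by library size with TMM factors, and they are not divided by gene length, which was not used here, so that the order of genes is an order of reads and not of molecules. The median member had 0.707 CPM (quartiles 0.328 and 1.77), and mean levels over the 9 libraries ranged from 0.126 to 10567 CPM. The same limit left AgB identifiers with a median of 19.0 CPM and AgR identifiers with a median of 19.8 CPM. Of the 265 members, 168 (63.4%) lay below 1 CPM, against 15.8% for AgB and 14.3% for AgR, and 28 lay above 5 CPM. A median member had 28 to 41 counts in a library, out of library totals of 44324212 to 53786882 counts.

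**Figure D1:**
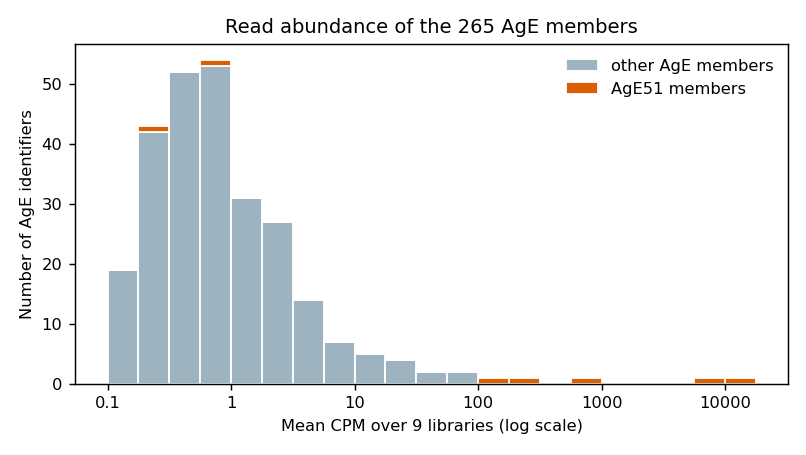
Number of AgE members (y axis) by mean CPM over the 9 libraries (x axis, log scale), with the 7 members of prefix AgE51 in orange. Most members lie below 1 CPM, and the 5 members above 100 CPM all belong to AgE51.

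The precision of these low levels was limited, and the counts themselves came largely in even numbers. Among member counts of 10 to 99, 1166 of 1430 (81.5%) were even, against 65.8% for AgB and 66.6% for AgR identifiers in the same range. At 1000 counts and more the shares were 52.0%, 50.0% and 50.9%. Counts of independent reads would be even and odd about equally often, so a low count here cannot be read as that many independent reads, and the sources used here do not state how the counts were made. Over members with counts of 10 to 99 the even share ran from 68.6% in extract replicate 2 to 93.9% in control replicate 3.

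Replicates of AgE members varied more than those of the median gene, and the difference was smaller or turned within classes of abundance up to 20 CPM. The median coefficient of variation within groups was 49.3% for members and 10.9% over all genes passing the same limit. In the class of 0.5 to 1 CPM it was 49.1% for the 67 members and 46.7% for all genes, and in the class of 1 to 5 CPM 30.9% for 69 members and 26.2% for all. From 5 to 20 CPM the order was the other way round, with 11.6% for 18 members and 13.2% for all. Above 20 CPM it was 11.6% for 10 members, of which 5 are AgE51 identifiers, and 6.44% for all. Across the 265 members, which are not independent replicates, Spearman correlations of counts were 0.689 to 0.867 between libraries of a group and 0.679 to 0.856 between groups.

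A run of consecutive identifiers, AgE51_g003 to AgE51_g007, held nearly all AgE reads. The 7 AgE51 members took 96.0% to 97.3% of the counts on AgE members in each library. AgE51_g004 was among the most counted genes of every library (ranks 3 to 5), and AgE51_g006 held ranks 5 to 7. Their neighbours on the other side of the run were rare: AgE51_g001 had 21 to 60 counts and AgE51_g002 had 6 to 19 counts in a library. Whether these genes overlap or share reads was not analysed here, and the sources used here do not state the strandedness of the libraries.

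AgE51_g004 had 7907, 9028 and 8324 CPM in the control libraries, 10532, 10663 and 12881 CPM with biochanin A, and 12793, 13126 and 9847 CPM with extract. All 6 treated libraries exceeded the 3 controls, and the treated groups overlapped each other. The log2 fold change against control was 0.43 ± 0.10 (SE) with biochanin A and 0.50 ± 0.10 with extract, with adjusted p-values of 0.0022 and 0.00128 by edgeR's quasi-likelihood test over all 15177 tested genes. The log2 difference between extract and biochanin A was 0.07 ± 0.10 (adjusted p = 0.714 by edgeR). AgE51_g006 followed the same order, with 5778, 6609 and 5933 CPM in control, 7740, 7928 and 9388 CPM with biochanin A, and 8947, 9683 and 7195 CPM with extract. Its log2 fold changes were 0.45 ± 0.10 and 0.50 ± 0.10, with adjusted p-values of 0.00123 and 0.00114 by edgeR. Scaled by library totals in place of TMM factors, these log2 fold changes with biochanin A were 0.23 for AgE51_g004 and 0.25 for AgE51_g006, both still called.

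AgE51_g007 had 530.2, 600.5 and 554.3 CPM in control, 711.2, 701.1 and 871.1 CPM with biochanin A, and 962.5, 1004 and 649.9 CPM with extract. It rose with both treatments, by 0.44 ± 0.14 (adjusted p = 0.0282) and 0.63 ± 0.14 (adjusted p = 0.00735, edgeR) on the log2 scale. The call with biochanin A was lost without any 1 of the 3 control libraries or biochanin A replicate 3 (adjusted p 0.069 to 0.13), with limma voom (0.10), without the filter on low counts (0.080) and with library totals (0.14). The call with extract was lost without control replicate 2 (0.074), without control replicate 3 (0.073) and with limma voom (0.054).

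The remaining genes of the run did not pass the test. AgE51_g005 had 57.2, 67.7 and 73.1 CPM in control, 143.8, 94.0 and 115.8 CPM with biochanin A, and 168.8, 124.1 and 73.8 CPM with extract. All 6 treated libraries lay above the 3 controls, extract replicate 3 by a small margin, and the log2 fold changes were 0.84 ± 0.32 and 0.89 ± 0.32, with adjusted p-values of 0.0911 and 0.121 by edgeR. DESeq2 called both (0.022 and 0.023), and without extract replicate 3 edgeR did so too (0.0012 and 0.0006). The change with biochanin A was also called by edgeR in a fit of only the 2 groups compared (2.1e-05) and without extract replicate 1 (0.04). The change with extract was not called in such runs (0.14 and 0.25). AgE51_g003 stood at 264.1 ± 23.3 CPM in solvent, 308.7 ± 63.8 CPM after biochanin A and 318.7 ± 67.6 CPM after extract (SD, n = 3 each), with overlap between all groups.

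**Figure D2:**
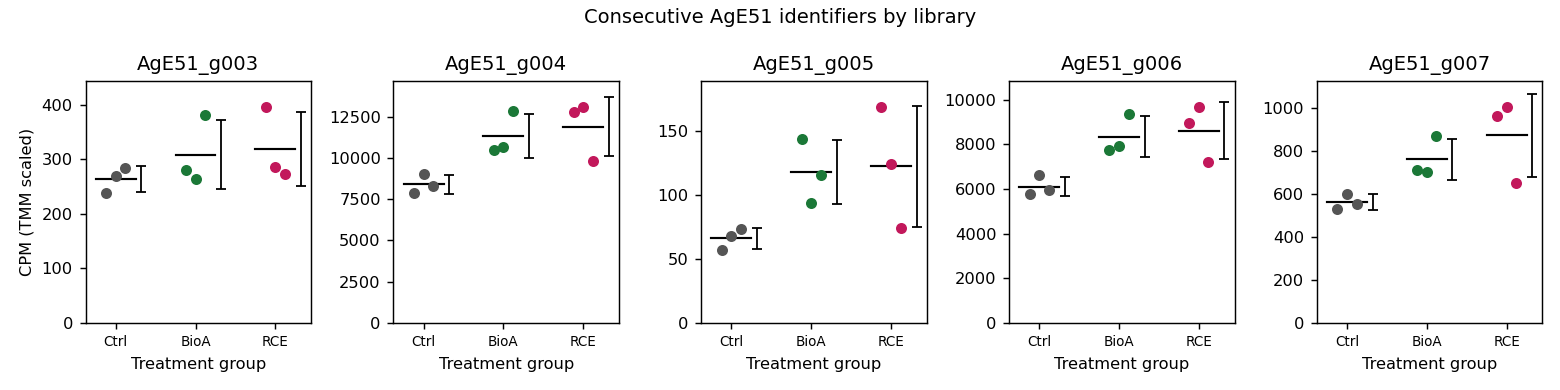
TMM-scaled CPM (y axis, starting at 0, a scale of its own in each panel) of 5 consecutive AgE51 identifiers in control (Ctrl), biochanin A (BioA) and red clover extract (RCE). Points are libraries, lines are means and bars are SD (n = 3); every treated library of AgE51_g004 lies above the highest control of 9028 CPM, while those of AgE51_g003 overlap the controls.

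The AgE51 genes kept nearly fixed proportions in some pairs and not in others. The ratio of AgE51_g006 to AgE51_g004 counts lay between 0.699 and 0.744 in the 9 libraries. The ratio of AgE51_g007 to AgE51_g004 was 0.0665 to 0.0671 in the control libraries and 0.0752, 0.0765 and 0.0660 in extract replicates 1, 2 and 3. For AgE51_g005 the ratio to AgE51_g004 ranged 1.89-fold, from 0.00723 in control replicate 1 to 0.0137 in biochanin A replicate 1. These ratios are of reads, and no test was made on them.

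Because of this run, the summed AgE reads followed AgE51. AgE members took 1.66%, 1.83% and 1.72% of the counts in the control libraries, 1.89%, 1.94% and 2.27% with biochanin A, and 2.27%, 2.42% and 1.90% with extract. All 6 treated libraries lay above the 3 controls. Two-sided exact permutation tests gave p = 0.1 for each treatment against control, the smallest that 3 libraries against 3 allow, and 0.4 between treatments. Adjusted over these 3 comparisons the exact p-values were 0.15, 0.15 and 0.4. Wilson 95% intervals of these shares were at most 0.00876 percentage points wide and cover only the counting error of counts taken as independent reads.

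Without AgE51, the other 258 members together took 0.0672%, 0.0663% and 0.0626% of the counts in control, 0.0656%, 0.0662% and 0.0614% with biochanin A, and 0.0612%, 0.0650% and 0.0693% with extract. The groups overlapped, and two-sided exact permutation tests gave p = 0.5 for biochanin A and 1 for extract against control. Over the TMM effective library size, the same sum was 0.0603 ± 0.0026% in control, 0.0684 ± 0.0022% after biochanin A and 0.0665 ± 0.0020% after extract (SD, n = 3 each). On that scale the treated libraries no longer overlapped the controls (exact permutation p = 0.1 for each), so the order of the groups for this sum depends on the scaling. Both sums were added after the data were seen.

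**Figure D3:**
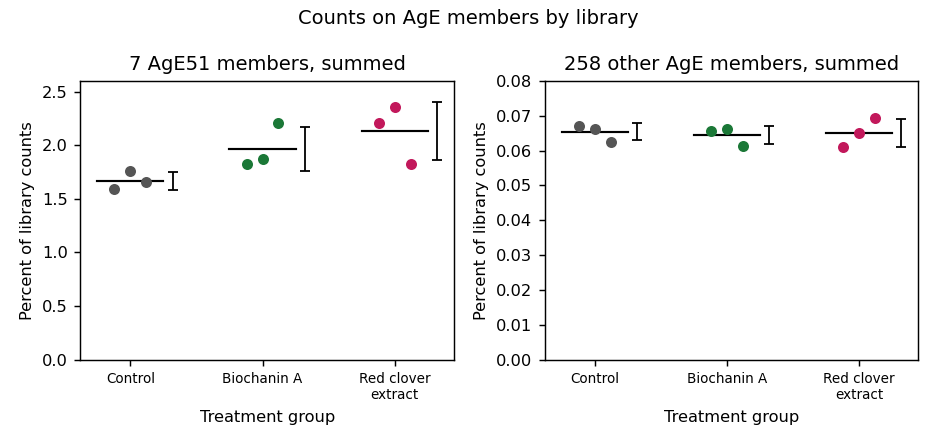
Percent of library counts (y axis, starting at 0) on the 7 AgE51 members (left) and the 258 other AgE members (right) by treatment. Points are libraries, lines are means and bars are SD (n = 3); treated libraries lie above the controls on the left and overlap them on the right, where all 9 lie between 0.0612% and 0.0693%.

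The number of AgE identifiers detected differed little between groups. At a common depth of 44324212 counts, the expected number of AgE identifiers with at least 10 counts was 218.2, 218.3 and 208.3 in control, 224.4, 221.8 and 227.0 with biochanin A, and 219.7, 228.0 and 229.0 with extract. The treated libraries did not overlap the controls, with a two-sided exact permutation p of 0.1 for each treatment (0.15 adjusted over 3 comparisons). With unthinned counts the groups overlapped (exact permutation p = 0.3 and 0.2), and so they did at 1 or more counts (0.6 and 0.3).

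Of the 265 members, 260 passed the expression filter applied to all genes and were tested, and 5 were not. With biochanin A, 15 rose and 5 fell, together 7.69% of those tested, where 35.2% of all 15177 genes were called. Of all genes 16.9% were called higher and 18.3% lower. Of the 15, 1 had 0 counts in every control library and reached the limit of 10 counts only in treated libraries. Of the 5, 1 had 2, 0 and 4 counts with biochanin A and reached it only in the other groups. Both differences were therefore set in part by that limit. Members were rare, and their fold changes had a median SE of 0.72 against 0.14 over all genes. By abundance, 2 of 96 members below 0.5 CPM, 0 of 67 from 0.5 to 1 CPM and 6 of 69 (8.70%) from 1 to 5 CPM were called by edgeR, against 4.23%, 6.95% and 18.4% of all genes in those classes. From 5 to 20 CPM 6 of 18 members (33.3%) were called, against 36.5% of all genes, and above 20 CPM 6 of 10, against 49.3%. At an unadjusted p below 0.05, 36 members passed, and DESeq2 called 27 and limma voom 24. Without biochanin A replicate 2 the count was 12.

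The fold changes of the members leaned higher than those of all genes. The median log2 fold change with biochanin A was 0.23 over the 260 members and -0.02 over all genes, and 164 members (63.1%) had a positive value against 48.5% of all genes. Under scaling by library totals the values of all genes shifted by a median of -0.20, the median member stood at 0.02 against -0.22 for all genes, and 8 members were called higher and 8 lower. Relative to all genes the members' median was 0.20 to 0.33 higher in each of the 17 fits made. Members from 0.5 to 1 CPM had a median of 0.25 and those from 1 to 5 CPM 0.20, where all genes had 0.01 and -0.05. In the class of 5 to 20 CPM the 18 members had a median of 0.02 with 9 of 18 positive, against -0.07 for all genes. No test was made of this difference.

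**Figure D4:**
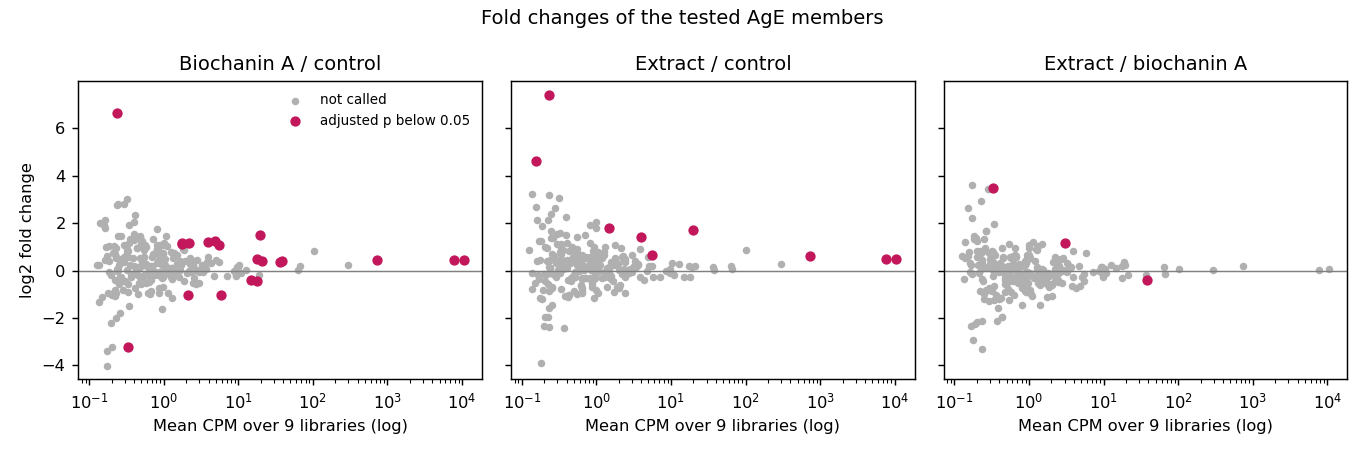
Log2 fold change (y axis) against mean CPM (x axis, log scale) of the 260 tested AgE members in the 3 comparisons. Called members (adjusted p below 0.05, edgeR) are in colour: 20 with biochanin A, 9 with extract and 3 between the treatments, among a wide scatter at low CPM.

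AgE27_g007 had the largest rise with biochanin A by the rule for named members. It had 7.53, 7.41 and 9.84 CPM in control, 24.2, 25.3 and 20.6 CPM with biochanin A, and 30.7, 24.5 and 26.7 CPM with extract. All treated libraries lay far above the controls, at more than 20 CPM against less than 10. The log2 fold change was 1.50 ± 0.14 with biochanin A (adjusted p = 1.31e-07, edgeR) and 1.72 ± 0.14 with extract (adjusted p = 3.18e-08), and both calls held in every alternative run.

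Its neighbours by number moved differently. AgE27_g006 had 35.2, 34.9 and 32.2 CPM in control, 43.0, 47.2 and 46.5 CPM with biochanin A, and 29.7, 36.3 and 38.4 CPM with extract. Biochanin A libraries stood above all others, and extract libraries overlapped the controls. It rose by 0.42 ± 0.10 with biochanin A (adjusted p = 0.0028, edgeR; 0.12 with library totals) and changed by 0.03 ± 0.10 with extract (adjusted p = 0.894). The ratio of AgE27_g007 to AgE27_g006 reads was 0.244 ± 0.053 in control, 0.514 ± 0.063 after biochanin A and 0.803 ± 0.201 after extract (SD, n = 3 each). AgE27_g005, named as the remaining member of the prefix, stood at 9.69 ± 0.41, 10.8 ± 1.1 and 9.02 ± 0.25 CPM, with adjusted p-values of 0.482 and 0.734 by edgeR.

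AgE03_g037 was the other named rise with biochanin A. It had 2.89, 3.99 and 2.22 CPM in control, 6.87, 7.64 and 6.92 CPM with biochanin A, and 4.14, 5.23 and 4.20 CPM with extract. Extract libraries lay between those of the other groups, without overlap. The log2 fold change was 1.23 ± 0.24 with biochanin A (adjusted p = 0.000513, edgeR) and 0.58 ± 0.24 with extract (adjusted p = 0.115). The log2 difference between extract and biochanin A was -0.66 ± 0.24 (adjusted p = 0.0705).

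The named falls with biochanin A were AgE62_g001 and AgE79_g001. AgE62_g001 had 6.34, 9.89 and 6.17 CPM in control, 3.48, 5.03 and 2.54 CPM with biochanin A, and 7.10, 5.59 and 6.06 CPM with extract. Biochanin A libraries were the lowest of all, and extract libraries overlapped the controls. Its log2 fold change with biochanin A was -1.02 ± 0.26 (adjusted p = 0.00412, edgeR). AgE79_g001 had 3.67, 2.80 and 2.30 CPM in control, 1.48, 1.03 and 1.84 CPM with biochanin A, and 1.46, 2.09 and 2.12 CPM with extract, for a log2 fold change of -1.01 ± 0.36 with biochanin A (adjusted p = 0.0341). That call was lost without control replicate 1 or 2 or biochanin A replicate 1 or 2 (adjusted p 0.054 to 0.15) and in a fit of only these 2 groups (0.053). The extract libraries of AgE79_g001 also lay below all controls and overlapped those of biochanin A, and it was not called with extract.

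Among the 10 members with the most reads, AgE19_g004 and AgE54_g002 also rose with biochanin A. AgE19_g004 had 33.1, 34.7 and 29.0 CPM in control and 41.4, 49.5 and 32.3 CPM with biochanin A, so the groups overlapped, and its log2 fold change was 0.35 ± 0.13 (adjusted p = 0.0403, edgeR). AgE54_g002 stood at 18.1 ± 2.6 CPM in control and 23.8 ± 2.0 CPM with biochanin A (log2 fold change 0.40 ± 0.13, adjusted p = 0.0258). Both calls were lost with library totals (0.40 and 0.27) and without control replicate 1 (0.072 and 0.11), control replicate 3 (0.14 and 0.069), biochanin A replicate 1 (0.093 and 0.066) or biochanin A replicate 2 (0.29 and 0.11). The call of AgE19_g004 was also lost without extract replicate 2 (0.053). AgE29_g005 stood at 63.2 ± 5.5, 71.7 ± 3.5 and 65.5 ± 2.0 CPM in control, biochanin A and extract, and AgE36_g002 at 61.0 ± 7.6, 61.6 ± 4.9 and 68.9 ± 8.8 CPM. Neither passed the test in any of the 3 comparisons.

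Over all 20 members called with biochanin A, the 15 that rose came from 11 prefixes and the 5 that fell from 5 prefixes. The median rise was 2.13-fold and the median fall 2.01-fold. In 19 of the 20 the libraries of the groups did not overlap (14 that rose and 5 that fell). Calling by p-value favours genes without overlap, so this follows in part from the selection. Called or not, 51 of the 260 tested members and 45.4% of all tested genes showed no overlap.

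**Figure D5:**
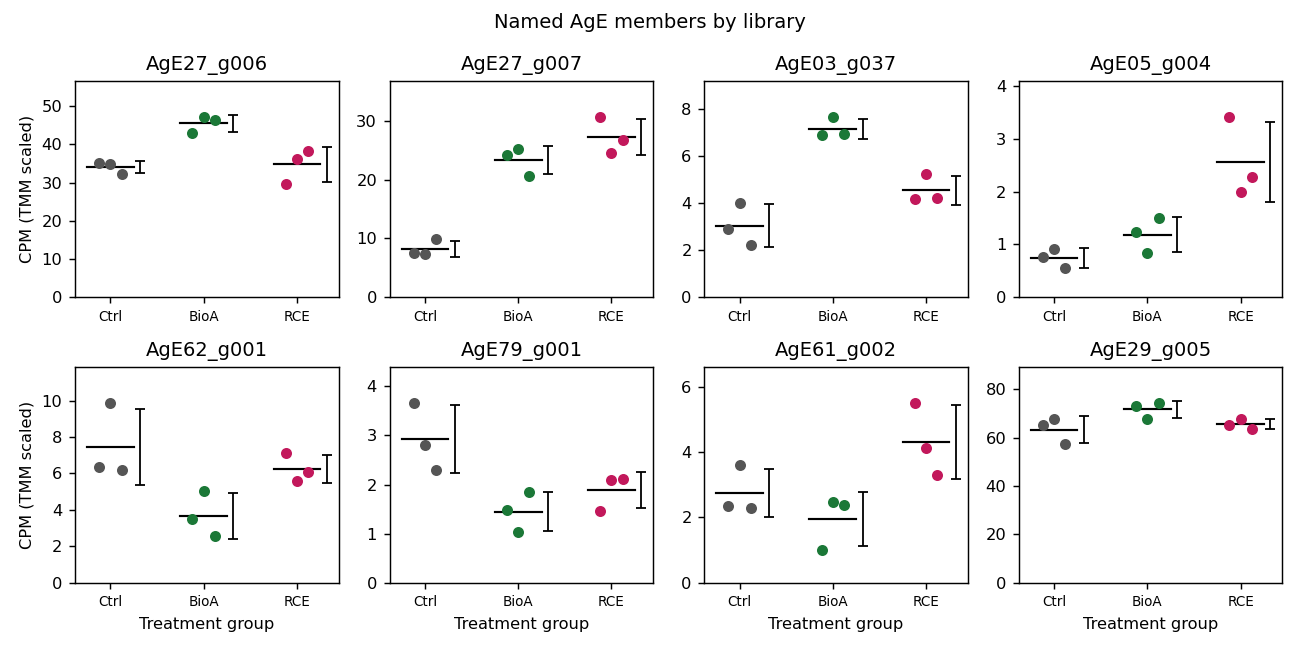
TMM-scaled CPM (y axis, starting at 0, a scale of its own in each panel) of 8 AgE members by treatment. Points are libraries, lines are means and bars are SD (n = 3); AgE27_g007 is above 20 CPM in all treated libraries and below 10 CPM in all controls, while its neighbour AgE27_g006 is highest in the biochanin A libraries.

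With extract, 9 members rose and 0 fell, together 3.46% of the 260 tested, where 17.3% of all genes were called, 9.34% higher and the remainder lower. Of the 9, 1 had reached the limit of 10 counts only in the extract libraries, where it was high, so its difference was set in part by that limit. A further 1, with 0 counts in every control library, reached it only in treated libraries, so the same holds for it. These 2 were the only ones called by edgeR of 96 members below 0.5 CPM, where 0.789% of all genes were called. In the class of 0.5 to 1 CPM 0 of 67 members were called, against 1.1% of all genes. The class of 1 to 5 CPM had 2 of 69 called, against 7.67%. From 5 to 20 CPM 2 of 18 members were called, against 17.2%, and above 20 CPM 3 of 10, against 25.6%. At an unadjusted p below 0.05 edgeR gave 22 members higher and 2 lower. DESeq2 called 12 higher and 0 lower and limma voom 9 higher and 0 lower, while with library totals 8 were higher and 2 lower. In each of the 9 the libraries of the groups did not overlap, which again follows in part from the selection by p-value. Called or not, 41 of the 260 members and 31.4% of all tested genes showed no overlap. Both comparisons with control use the same 3 control libraries. The members' median log2 fold change was 0.17 with 156 of 260 positive, against -0.01 over all genes. With library totals it was 0.03 against -0.16.

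AgE05_g004 had the largest rise with extract by the rule for named members, followed by AgE27_g007. It had 0.753, 0.919 and 0.545 CPM in control, 1.22, 0.827 and 1.50 CPM with biochanin A, and 3.41, 1.99 and 2.28 CPM with extract. Extract libraries stood above all others, and biochanin A libraries overlapped the controls. The log2 fold change was 1.79 ± 0.44 with extract (adjusted p = 0.00715, edgeR; 0.055 without extract replicate 1) and 0.68 ± 0.44 with biochanin A (adjusted p = 0.255).

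A further member that rose with biochanin A and with extract was too rare to be named by the rule. It had 0 counts in each of the 3 control libraries, 14, 20 and 2 with biochanin A, and 20, 26 and 18 with extract. All of these counts are even, and no fold is given for them.

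Extract and biochanin A were also compared with each other, at doses given in different units, and the sources used here do not state how much biochanin A the extract held. Of the 260 members, 2 were higher and 1 was lower with extract, together 1.15%. Of all genes 14.8% were called, 7.37% higher and 7.39% lower. Of the 2 higher members, 1 had 2, 0 and 4 counts with biochanin A and 20, 18 and 38 with extract. It reached the count limit only in the control and extract libraries, so its difference was set in part by that limit. Below 0.5 CPM 1 of 96 members was called, against 0.573% of all genes, and from 0.5 to 1 CPM 0 of 67, against 0.331%. From 1 to 5 CPM it was 1 of 69, against 3.48%, and from 5 to 20 CPM 0 of 18, against 14%. Above 20 CPM it was 1 of 10, against 23.1%. At an unadjusted p below 0.05, 18 members passed. The count was 8 in a fit of only these 2 groups, 6 with DESeq2, 5 with library totals, 7 without control replicate 2 or 3, and 1 without extract replicate 1 or 2. The libraries of the groups did not overlap in 37 of the 260 members and in 35.1% of all tested genes. The members' median log2 difference was -0.02, and 127 of 260 were positive.

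The named member that was lower with extract was AgE27_g006, whose values are given above, with a log2 difference of -0.39 ± 0.10 (adjusted p = 0.0127, edgeR). That p was 0.056 without biochanin A replicate 2 and 0.061 without extract replicate 1. AgE61_g002 was higher with extract. It had 2.34, 3.60 and 2.30 CPM in control, 0.988, 2.46 and 2.37 CPM with biochanin A, and 5.51, 4.11 and 3.30 CPM with extract. Control libraries overlapped those of both treatments, and the treatments did not overlap. The log2 difference was 1.15 ± 0.35 (adjusted p = 0.0316, edgeR), and the call was lost without biochanin A replicate 1 (0.13), extract replicate 1 (0.13) or extract replicate 2 (0.077). For AgE27_g007 the log2 difference was 0.23 ± 0.14 (adjusted p = 0.309, edgeR).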

How the data were processed

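RNA was sequenced from 9 libraries of whole Ascaris suum larvae, 3 per treatment. Per the labels' protocols, total RNA was extracted with TRIZOL. The authors deposited raw read counts per gene, without normalization. DESeq2 is named without a role, per the submitters' processing notes. Aligner, counting tool, genome build and treatment of multi-mapping reads are not given in the sources, so counts of near-identical copies are uncertain. Columns were matched to samples by library name, and 0 were left unmatched.

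AgE members and alternatives were chosen with earlier results of these data known. Counts of all 17974 identifiers were filtered with filterByExpr, which left 15177, scaled with TMM and tested with edgeR 4.0.16 (R 4.3.3) by the quasi-likelihood F test in one model of 3 groups with 6 residual degrees of freedom. P-values were adjusted by Benjamini-Hochberg over all tested genes, with a threshold of 0.05. A log2 fold change divided by the square root of F gave its SE. Summed shares and numbers detected were compared by exact two-sided permutation over libraries (Python 3.11.15). Numbers detected were computed as binomial expectations at the smallest library total, with counts taken as independent reads.

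Since no identifier has a name, at most 2 members that rose and 2 that fell were named in a comparison, the largest changes among called members with a mean of at least 1 CPM in 1 of the groups and no overlap between libraries. The 10 members with the highest mean CPM were named for their level, and up to 3 identifiers on each side of the count limit could be named. Lists of detoxification genes and tissue markers needed product names and were not used. AgE27_g005, AgE51_g001 and AgE51_g002 were named after their values were seen. The workflow was tested on simulated data of independent counts, with changes planted only in genes of at least 1 CPM. Recovery below 1 CPM, where 168 of the 265 members lie, was not tested. Alternatives were DESeq2 size factors, library totals, limma voom (limma 3.58.1), DESeq2 1.42.0, no filter, 2-group fits, a replicate block, a limit in all 9 columns and leaving out each library.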

Additional observations from a re-analysis of the deposited data

How the results depend on the processing

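Among the calls of AgE members, the count with biochanin A was 12 to 22 without 1 library and that with extract 7 to 13. Between the treatments it was 5 with library totals, 6 with DESeq2, 8 in a 2-group fit, 5 with the replicate block, and 1 to 7 without 1 library. Library totals changed 15 higher and 5 lower calls with biochanin A to 8 and 8, of which 13 were among the original 20. With the replicate block 19 members were called with biochanin A and 7 with extract, and AgE51_g007 lost its call with biochanin A (adjusted p = 0.083, edgeR). Deviations of libraries with equal replicate numbers correlated between -0.0289 and 0.0236 over all tested genes and between -0.157 and 0.102 over members. With 3 libraries per group, these values cannot show whether equal numbers mark a shared batch. The share of counts on AgE members differed from control by 0.178 to 0.365 points with biochanin A and 0.349 to 0.612 points with extract, and by 0.0542 to 0.317 points between treatments, without 1 library. Over TMM library sizes the differences were 0.556 points with biochanin A, 0.649 points with extract and 0.0926 points between treatments. Without the 100 most abundant genes of each library, the share differed from control by 0.0326 points with biochanin A and -0.0322 points with extract, and by -0.0647 points between treatments. Without the 10 most abundant members it differed by -0.00126 points with biochanin A. Without AgE51 it differed by -0.000954 points with biochanin A and -0.000229 points with extract, and over TMM library sizes by -0.00192 points between treatments. By construction these alternatives drop AgE51 reads. AgE51_g007 ranked 71 to 149 among the genes of a library, so it was among the 100 removed in some libraries and not in others. The signs of the remainders were not tested further. The number detected differed from control by 6.11 to 11.1 with biochanin A and 7.30 to 13.6 with extract, and by -0.542 to 4.14 between treatments, without 1 library. Over named members, 550 values kept their direction or stayed uncalled, 34 lost their call and 8 gained one. A median member had 28 to 41 counts in a library, and the median SE of a log2 fold change with biochanin A was 0.72; the effect of depth on the calls was not tested.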

Other observations

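For some of the 18 AgE prefixes with at least 5 members, summed levels are given as values with no test. The remaining prefixes are not listed, so the selection does not show how common a direction was. The sums are TMM-scaled and were not computed with library totals. The 11 members of AgE05 summed to 25.8 ± 3.7 CPM in control, 36.7 ± 3.5 CPM with biochanin A and 31.9 ± 1.2 CPM with extract (SD, n = 3 each). The 6 members of AgE25 summed to 2.49 ± 0.19, 4.54 ± 0.93 and 4.07 ± 0.37 CPM in the same order. In both AgE05 and AgE25 all treated libraries lay above the controls. The 9 members of AgE03 summed to 9.82 ± 3.04, 13.9 ± 0.8 and 11.4 ± 0.5 CPM, and the 12 members of AgE04 to 7.07 ± 2.39, 11.05 ± 2.17 and 9.64 ± 1.05 CPM. The 12 members of AgE01 summed to 12.9 ± 1.9, 10.9 ± 1.5 and 11.4 ± 1.7 CPM, and the 8 members of AgE09 to 29.3 ± 2.2, 24.99 ± 0.78 and 26.6 ± 2.8 CPM, both with their highest mean in control. The 17 members of AgE06 had 20.3 ± 2.1, 21.9 ± 2.8 and 20.6 ± 3.6 CPM. These sums include members that were called singly with biochanin A: 2 higher in AgE05, 1 higher in AgE25, 1 lower in AgE09, and AgE03_g037 in AgE03. With extract, 2 members of AgE05 were called higher. The sums are therefore no separate observations and do not show that the members of a prefix moved together.

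The 416 AgE identifiers outside the limit held 237 to 416 counts in a library, all together, and none exceeded 54 counts in any library.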
